A study of Mus musculus with 9 samples.

Results

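The Th2 cytokine genes Il4, Il13 and Il5, the gene Rad50 that lies among them, and the Th1 cytokine gene Ifng were examined for CTCF and Rad21 sites in lymphocyte precursors. Peaks were taken when at least 1 bp lay in 1 of 2 windows on the mouse genome (build mm9). The Th2 window ran over the genes from Il4 to Il5 with 100 kb either side, chr11:53316484-53638608, and the Ifng window over Ifng with 150 kb either side, chr10:117728103-118032948. The windows held 106 of the 190262 peaks of the series, 72 in the Th2 window and 34 in the Ifng window. The rule used position alone, so neither the number nor the strength of the peaks was fixed by it.

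CTCF is a zinc finger protein that binds a directional DNA motif, and cohesin, of which Rad21 is a subunit, accumulates where CTCF halts it as it extrudes chromatin loops. Il4 and Il13 encode the signature cytokines of type 2 helper T cells, and Il5 encodes the growth and survival factor of eosinophils. They stand in a conserved cluster in which Rad50, a ubiquitously expressed DNA repair gene, carries the Th2 locus control region in its 3′ part. Ifng encodes interferon gamma and lies in a gene-poor region, where distal enhancers and CTCF sites shape its expression in Th1 and NK cells. None of the cells profiled here is a differentiated helper T cell. The thymocytes are at stages before a Th1 or Th2 fate, whereas the pro-B and pre-B cells, which gave both CTCF lists, are of the B lineage.

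All mice were C57BL/6 and RAG-deficient, and each antibody and cell type had 1 library, so no test between cell types was possible and no value carries a replicate error. CTCF was profiled in RAG1-/- bone marrow pro-B cells grown with IL7 for 7 days and in RAG-/-µ+ pre-B cells, whose stage is set by a rearranged IgM transgene. Rad21, the cohesin subunit, was profiled in those pre-B cells, in Rag1-/- CD4-CD8- (DN) thymocytes and in CD4+CD8+ (DP) thymocytes of Rag1-/- mice with a rearranged TCRb transgene. Bone marrow came from mice of both sexes aged 6 to 14 weeks and thymus from mice aged 4 to 8 weeks, and each of the 4 cell preparations had its own input, which pre-B CTCF and Rad21 shared. CTCF in thymocytes was not analysed here, and the files hold no expression, so the cell types could not be checked against marker genes. The lists held 71080 CTCF peaks in IL7-cultured pro-B cells, 42250 CTCF peaks in pre-B cells, and 30488, 9701 and 36743 Rad21 peaks in pre-B, DN and DP cells. Read depth is unknown, and a site without a peak in a library was not called there, and may still be bound below the level of a call. The strength of a site is given as its rank, the percentage of peaks in the same list with a lower score, because scores are comparable only within a list. Peaks of different libraries that overlapped were merged into sites, 28 in the Th2 window and 11 in the Ifng window, and the highest rank is given where a library had several peaks in a site.

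The sequences of 9 sites that carry the patterns described below are shown first, as the mm9 plus strand, 5′ to 3′. Capitals mark the best match, with at most 2 mismatches, to the 12-base CTCF consensus that HOMER found de novo in the study. The reverse complement of this consensus is the usual forward CTCF motif, so a plus-strand match was taken to point to lower coordinates and a minus-strand match to higher ones.
Kif3a intron, minus-strand match, chr11:53403920-53403971: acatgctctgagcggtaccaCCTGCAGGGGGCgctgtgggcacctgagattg
Between Il4 and Il13, plus-strand match, chr11:53441562-53441613: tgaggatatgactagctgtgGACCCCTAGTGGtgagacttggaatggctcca
Beyond Il5, plus-strand match, chr11:53550787-53550838: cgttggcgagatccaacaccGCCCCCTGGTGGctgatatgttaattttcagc
Between Il5 and Irf1, minus-strand match, chr11:53571661-53571712: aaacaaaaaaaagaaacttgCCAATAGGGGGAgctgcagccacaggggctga
Ifng -70.4 kb, plus-strand match, chr10:117807683-117807734: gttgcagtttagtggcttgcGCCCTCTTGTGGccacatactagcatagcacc
Ifng intron 1, minus-strand match, chr10:117879122-117879173: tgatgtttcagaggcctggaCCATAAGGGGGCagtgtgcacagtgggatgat
Ifng +66.7 kb, minus-strand match, chr10:117944861-117944912: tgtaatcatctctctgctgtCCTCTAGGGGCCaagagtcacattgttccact
Ifng +105 kb, plus-strand match, chr10:117983230-117983281: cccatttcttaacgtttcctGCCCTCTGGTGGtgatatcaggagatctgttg
Ifng +152 kb, minus-strand match, chr10:118029859-118029910: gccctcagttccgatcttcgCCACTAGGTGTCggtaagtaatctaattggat

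Peaks were denser in the Th2 window than over the genome in all 5 lists, although in DN, with 3 peaks, the difference was within counting error. The window held 28 CTCF peaks in IL7-cultured pro-B cells, 18 CTCF peaks in pre-B cells, and 12, 3 and 11 Rad21 peaks in pre-B, DN and DP cells. CTCF density was 86.9 peaks per Mb after IL7 culture and 55.9 in pre-B cells, against 26.9 and 16.0 over chromosomes 1 to 19 and X. Rad21 density was 37.3, 9.31 and 34.1 peaks per Mb in pre-B, DN and DP cells, against 11.6, 3.68 and 13.9 over the same chromosomes. Chromosome 11 as a whole was also denser than the genome, at 43.8 and 27.1 CTCF peaks per Mb and at 19.2, 6.32 and 23.9 Rad21 peaks per Mb in the same order, and the Th2 window lay above it in all 5 lists. The exact intervals of the window's density, which cover counting error only, were 57.8 to 126 and 33.1 to 88.3 peaks per Mb for CTCF and 19.3 to 65.1, 1.92 to 27.2 and 17.0 to 61.1 for Rad21. The DN interval therefore included both the genome's and the chromosome's density, and the DP interval included that of chromosome 11.

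The Ifng window held 7 CTCF peaks in each B-lineage library and 7, 4 and 9 Rad21 peaks in pre-B, DN and DP cells. The CTCF density was 23.0 peaks per Mb in both B-lineage lists, below the 26.6 of chromosome 10 in IL7-cultured pro-B cells and above its 16.3 in pre-B cells. The Rad21 densities of 23.0, 13.1 and 29.5 peaks per Mb were above those of chromosome 10, at 12.7, 3.99 and 14.9. Each of these differences was within counting error, since the intervals, 9.23 to 47.3 peaks per Mb in the lists with 7 peaks, 3.58 to 33.6 in DN and 13.5 to 56.0 in DP, included the chromosome's density in all 5 lists.

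**Figure D1:**
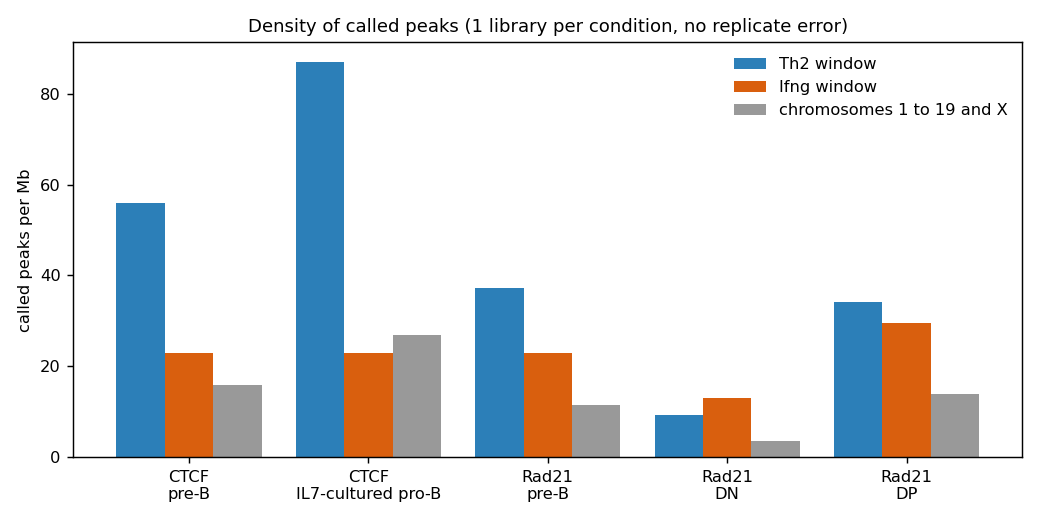
Called peaks per Mb in the Th2 window, in the Ifng window and over chromosomes 1 to 19 and X, for each of the 5 libraries, with 1 library per bar and no error. The Th2 bar stands above the genome bar in every library, and the Ifng bar of IL7-cultured pro-B CTCF, at 23.0, is the one window bar below the genome, at 26.9.

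Median ranks were higher in the Ifng window than in the Th2 window for CTCF in both libraries and for Rad21 in pre-B and DN cells. The median CTCF rank in the Ifng window was 71.6 after IL7 culture and 75.2 in pre-B cells, against 56.0 and 41.7 in the Th2 window. For Rad21 the median was 81.8 in pre-B cells and 68.8 in DN cells, against 46.7 and 53.1 in the Th2 window. The DN medians rest on 4 peaks in the Ifng window and 3 in the Th2 window. DP thymocytes had the other order, with a median of 33.3 in the Ifng window and 66.4 in the Th2 window. Of the 9 DP peaks of the Ifng window, 5 had scores of at least 100, and the rest ranked 9.41 to 28.9. No difference between medians was tested.

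Along the Th2 window, the stretch from the Il4 to the Il5 gene was less dense in peaks than the 100 kb on either side in both CTCF lists and in pre-B and DP Rad21; no difference was tested, and DN Rad21 had 3 peaks in all. This stretch, 122 kb long, held 7 CTCF peaks in IL7-cultured pro-B cells and 5 in pre-B cells, or 57.3 and 40.9 per Mb, and Rad21 peaks numbered 1 in pre-B, 1 in DN and 2 in DP cells. The 100 kb beyond Il5, which holds Irf1, carried 11 and 7 CTCF peaks and 7, 2 and 7 Rad21 peaks. On the other side, the 100 kb around Sept8 and Kif3a carried 10 and 6 CTCF peaks and 4, 0 and 2 Rad21 peaks.

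The longest stretches without a Rad21 peak in the Th2 window began at the same site between Il4 and Il13. In pre-B cells it ran 107 kb, chr11:53441790-53548845, over Il13, Rad50 and Il5. The DN stretch was 130 kb, chr11:53441854-53571590, and the DP stretch 78.8 kb, chr11:53441920-53520699. Over chromosomes 1 to 19 and X, stretches at least as long were 14.5%, 39.4% and 14.6% of those between neighbouring Rad21 peaks of the pre-B, DN and DP lists. They held 73.0%, 88.6% and 76.7% of all bases between these peaks, so nothing particular to the cluster is read from them. The longest stretch without a CTCF peak in IL7-cultured pro-B cells was 38.6 kb, chr11:53456642-53495214, and covered the 3′ part of Rad50, where the locus control region lies. Pre-B CTCF had its longest stretch, 51.7 kb, over the 5′ part of Rad50 and Il5, chr11:53495458-53547111. Stretches at least as long were 20.2% and 22.4% of those between neighbouring CTCF peaks of the 2 lists. They held 75.6% and 80.3% of the bases between these peaks, so nothing particular is read from the CTCF stretches either.

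**Figure D2:**
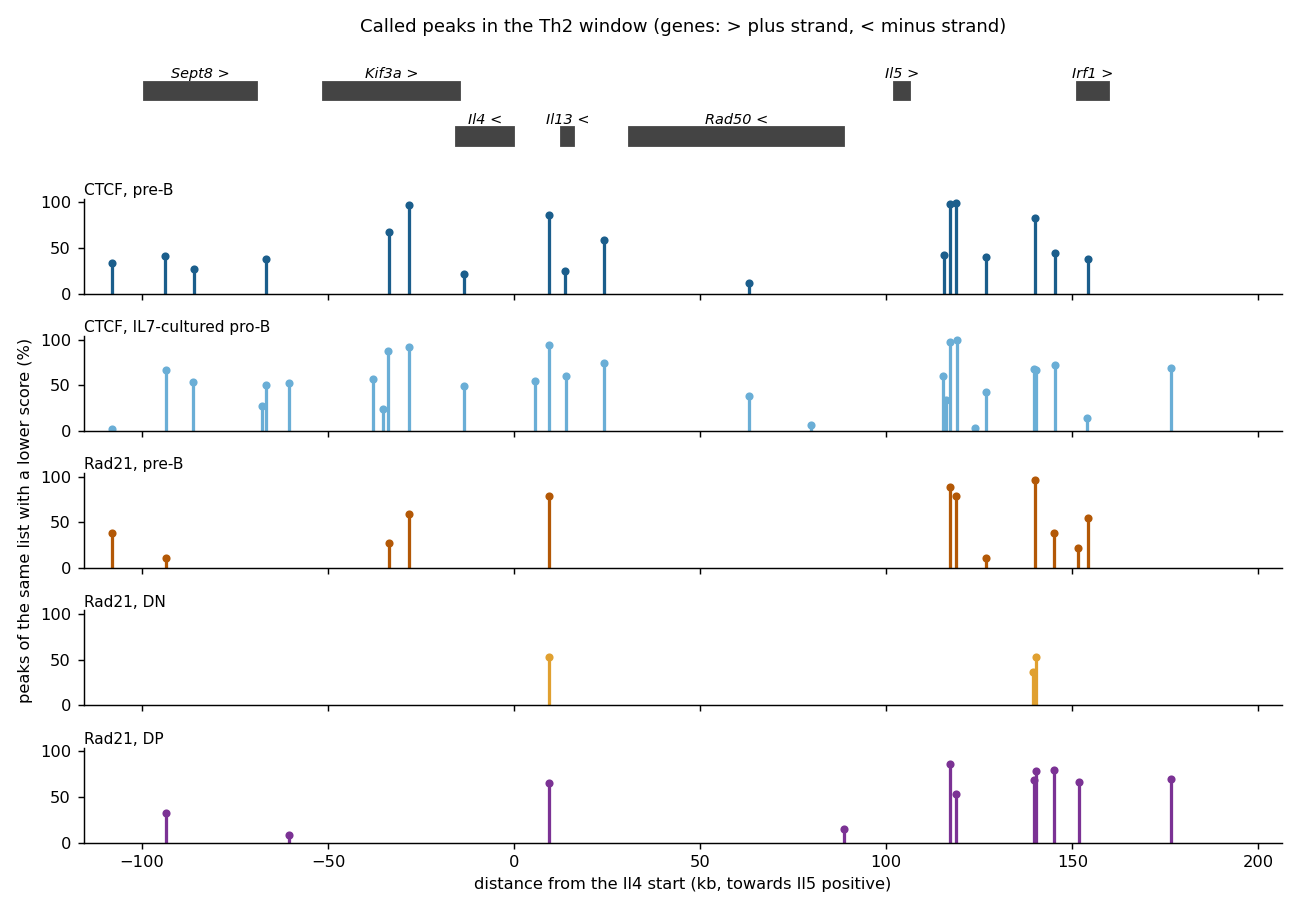
Called peaks of the 5 libraries in the Th2 window, by distance from the Il4 start in kb (x axis) and by rank in their own list in percent (y axis), with protein-coding genes drawn above. Both CTCF lists have peaks in Il4, Il13 and Rad50 and none in Il5. Between the site at 9 kb and the sites beyond Il5, Rad21 has only the DP peak at the Rad50 start, with a rank of 15.4.

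The site between Il4 and Il13, chr11:53441121-53441919, was the one site inside the cluster called in all 5 libraries. It lay outside annotated genes, 2907 bp from the 3′ end of Il13, and its pre-B CTCF peak was 9020 bp upstream of the Il4 start. Its CTCF rank was 93.5 in IL7-cultured pro-B cells and 85.9 in pre-B cells, and its Rad21 rank was 79.2 in pre-B, 53.1 in DN and 65.0 in DP cells. The consensus matched there with 1 mismatch, on the plus strand, in the sequence shown above. For Il4 and Il13 it was the nearest Rad21 peak in each Rad21 library, at 9041 to 9251 bp from the Il4 start and 6285 to 6415 bp from the Il13 start.

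Other CTCF sites of the cluster were weaker and had no Rad21 peak in any library. A CTCF site at the 3′ side of Il4, chr11:53418450-53418900, ranked 48.6 in IL7-cultured pro-B cells and 21.9 in pre-B cells. It lay in an intron of 1 non-coding Il4 transcript only, 7062 bp beyond the end of the coding transcripts. Within Il13, a site that overlapped coding sequence, chr11:53445628-53446261, ranked 60.1 and 24.4. The strongest of this group lay between Il13 and Rad50, chr11:53456043-53456785, 6236 bp from the 3′ end of Rad50, with ranks of 73.8 and 58.9. An intronic Rad50 site, chr11:53495029-53495486, ranked 38.0 and 11.4. Upstream of Il4, chr11:53437626-53438076, and in another Rad50 intron, chr11:53511947-53512167, CTCF was called in IL7-cultured pro-B cells only, with ranks of 54.8 and 6.35.

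In pre-B cells, where both proteins were profiled, 11 of 18 CTCF peaks of the Th2 window overlapped a Rad21 peak, 61.1% with an exact Clopper-Pearson 95% interval of 35.7 to 82.7%, against 63.5% of the whole list. Intervals here and below cover counting error only. By stretch, the overlap was 4 of 6 on the Kif3a side, 1 of 5 from Il4 to Il5 (interval 0.505 to 71.6%) and 6 of 7 on the Irf1 side (85.7%, interval 42.1 to 99.6%), and these intervals overlapped. Over the whole list the share with Rad21 was higher at higher CTCF rank: 20.8% at ranks from 0 to 20, 39.5% from 20 to 40, 69.7% from 40 to 60, 90.5% from 60 to 80 and 97.5% above 80. The 4 pre-B CTCF sites from Il4 to Il5 without Rad21 had ranks of 11.4 to 58.9, and the 1 with Rad21 had 85.9. In the Ifng window 7 of 7 pre-B CTCF peaks overlapped Rad21, with an interval of 59.0 to 100%. Of the pre-B Rad21 peaks, 11 of 12 in the Th2 window and 7 of 7 in the Ifng window overlapped a pre-B CTCF peak, against 88.1% of the list.

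The strongest CTCF sites of the Th2 window were a pair beyond the 3′ end of Il5. The nearer, chr11:53548822-53549770, began 10214 bp past Il5 and had a CTCF rank of 97.1 after IL7 culture and 98.0 in pre-B cells. Its Rad21 rank was 89.2 in pre-B cells and 85.6 in DP, and it was not called in DN. The farther, chr11:53550322-53551705, began 11714 bp past Il5 and had the highest CTCF ranks of the window, 99.3 and 99.6. Here Rad21 ranked 79.3 in pre-B cells and 53.7 in DP, and again it was not called in DN. The farther site held an exact match to the consensus on the plus strand, and the nearer held none with fewer than 3 mismatches. A weaker CTCF site next to the pair, chr11:53547112-53548570, overlapped the pseudogene Gm12213, had no Rad21 peak and ranked 60.2 and 41.9.

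Another high-ranking CTCF site lay in Kif3a, which encodes a kinesin motor subunit. The site chr11:53403614-53404319, 28.2 kb from the Il4 start on its 3′ side, overlapped a Kif3a coding exon, with its motif in the neighbouring intron, and ranked 91.8 in IL7-cultured pro-B cells and 97.2 in pre-B cells. Its Rad21 rank was 58.8 in pre-B cells, and no thymocyte library had a peak there. A neighbouring Kif3a site, chr11:53397980-53398913, showed the same set of libraries, with CTCF ranks of 87.4 and 67.6 and a pre-B Rad21 rank of 27.0.

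These 3 sites, the pair beyond Il5 and the one 28.2 kb from Il4, were the Th2 window's pre-B CTCF peaks among the strongest 10% of the list. All 3 overlapped pre-B Rad21, as did 98.2% of these strongest peaks over the genome. Of those with pre-B Rad21, 0 of 3 overlapped a DN Rad21 peak, against 64.2% over the genome, with an interval of 0 to 70.8%. In DP 2 of 3 overlapped a Rad21 peak, against 92.9%, and the Kif3a site was the one without. The Ifng window had 1 such peak, at -70.4 kb, and it was called in all 3 Rad21 libraries. The DN list was the shortest, and with every list limited to its 9701 highest-scoring peaks the site nearer Il5 was still called for Rad21 in pre-B and DP cells, the farther in pre-B cells only, and the Kif3a site in no Rad21 library, so that its difference between pre-B cells and thymocytes was not seen in lists of equal length.

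Between Il5 and Irf1, which encodes an interferon-responsive transcription factor, another site was called in all 5 libraries. It covered chr11:53571289-53572821, 32681 bp past Il5 and 10695 bp before Irf1. CTCF ranked 67.8 in IL7-cultured pro-B cells and 82.7 in pre-B cells, and Rad21 ranked 96.0 in pre-B, 53.4 in DN and 78.4 in DP cells. In pre-B cells it was the highest Rad21 rank of the window. The IL7-cultured pro-B, DN and DP lists each had 2 peaks in it, where both pre-B lists had 1 broad peak. A site closer to Irf1, chr11:53576537-53577885, ranked 71.7 and 44.5 for CTCF, 38.6 for pre-B Rad21 and 79.2 for DP Rad21.

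A few Rad21 peaks had no CTCF peak, and 2 of these lay on gene starts. At the Irf1 start, chr11:53583208-53584506, Rad21 ranked 21.7 in pre-B cells and 66.4 in DP and neither CTCF list had a peak. At the Rad50 start, chr11:53520700-53521141, Rad21 was called in DP only, with a rank of 15.4. In the Ifng window the 3 Rad21 peaks without CTCF were in DP only, at -50.9, +44.6 and +116 kb, with ranks of 24.9, 54.5 and 9.41. None of these 5 sites held a consensus match with at most 2 mismatches. The DP peaks were set against B-lineage CTCF only, since no thymocyte CTCF list was used.

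The remaining sites of the Th2 window lay around Sept8, a septin gene, in Kif3a, beyond Il5 and beyond Irf1. Within Irf1 and the overlapping Gm17334, chr11:53585967-53586546, CTCF ranked 14.4 and 38.0 and pre-B Rad21 54.6. In an intron of Gm12216, chr11:53608366-53609227, CTCF of IL7-cultured pro-B cells ranked 68.6 and DP Rad21 69.3, with no peak in pre-B cells. A Sept8 intron, chr11:53338214-53338929, held CTCF at ranks of 66.6 and 41.5 and Rad21 at 10.7 in pre-B cells and 32.9 in DP. At 8430 bp before Sept8, chr11:53323888-53324329, CTCF ranked 2.35 and 33.6 and pre-B Rad21 38.9. At 24.7 kb from the Il5 start, chr11:53558659-53559343, CTCF ranked 43.0 and 40.3 and pre-B Rad21 11. The site at 60.5 kb from the Il4 start had IL7-cultured pro-B CTCF, at 52.4, and DP Rad21, at 8.25. Those at 66.6 and 86.1 kb from the Il4 start had CTCF in both B-lineage libraries and no Rad21. A further 4 sites, at 35.3, 38.0 and 67.8 kb from the Il4 start and 21.8 kb from the Il5 start, had CTCF after IL7 culture only, with ranks of 3.45 to 57.1. No peak overlapped the lincRNA A430108G06Rik or the small gene Gm11006.

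**Figure D3:**
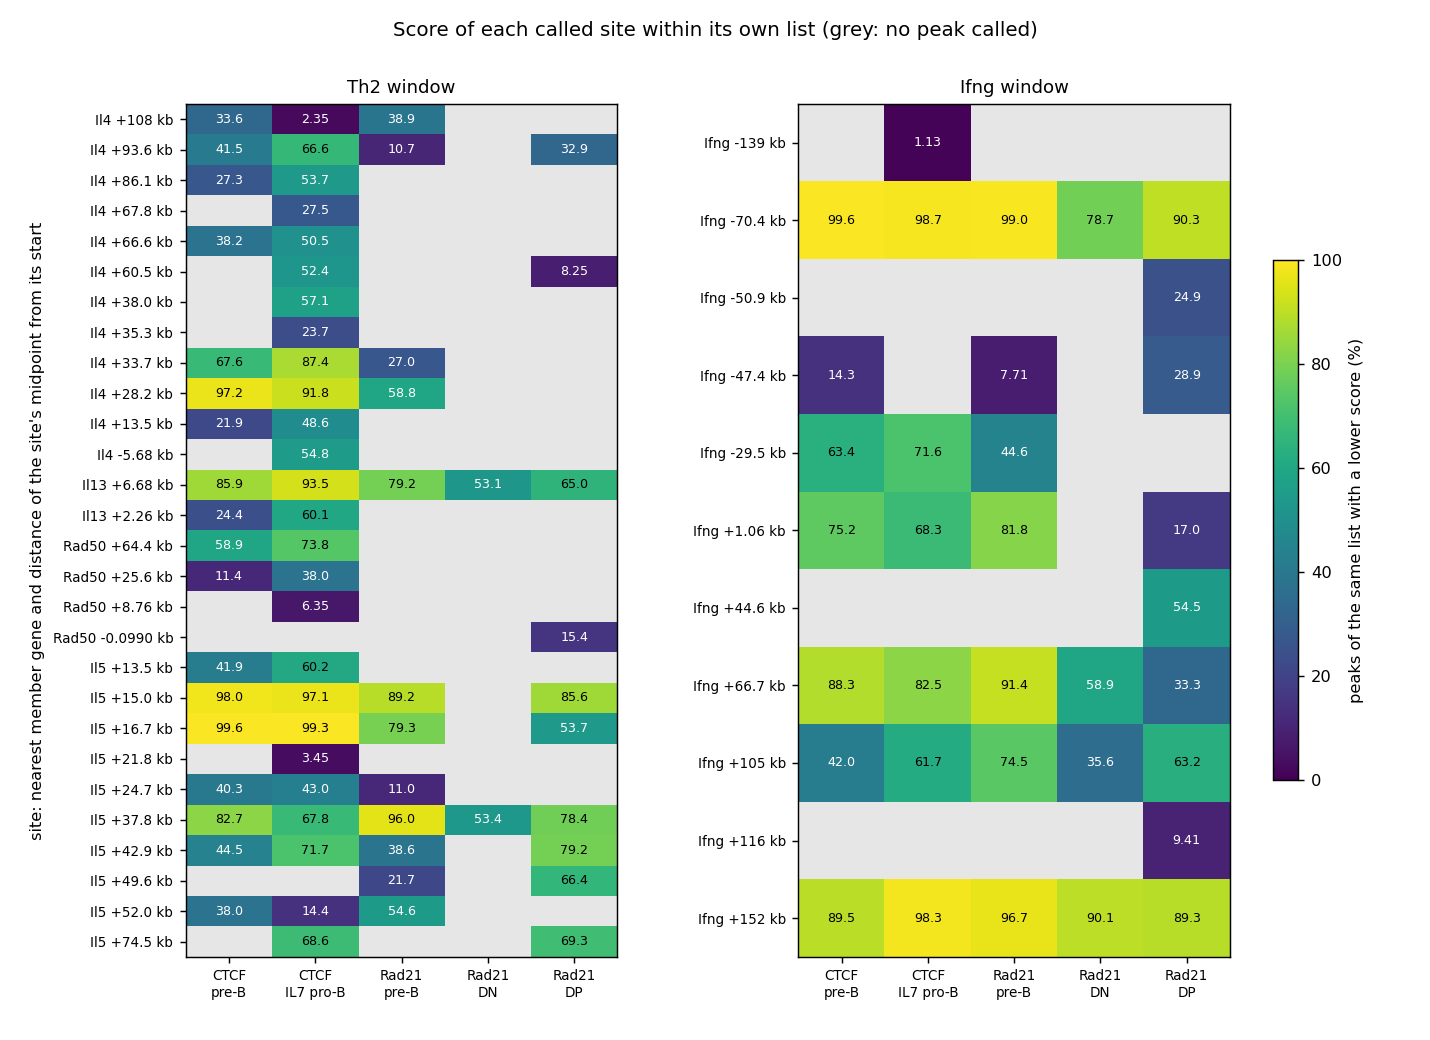
Rank of each merged site (row) in each library (column), in percent of the same list with a lower score, for the Th2 window (28 sites) and the Ifng window (11 sites); grey marks a library without a call. Rows filled in all 5 columns are 2 in the Th2 window, at Il13 +6.68 kb and Il5 +37.8 kb, and 4 in the Ifng window, at -70.4, +66.7, +105 and +152 kb.

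The Ifng gene was framed by sites shared by all libraries, and DN thymocytes had no Rad21 peak between the nearest of these on either side. The strongest, at -70.4 kb, chr10:117807181-117808166, had a CTCF rank of 98.7 after IL7 culture and 99.6 in pre-B cells. Its Rad21 rank was 99.0 in pre-B, 78.7 in DN and 90.3 in DP cells. At +152 kb, chr10:118029441-118030468, the CTCF ranks were 98.3 and 89.5 and the Rad21 ranks 96.7, 90.1 and 89.3. This site had the highest DN rank of either window. Both sites were still called in all 5 libraries with every list limited to 9701 peaks.

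The shared sites at +66.7 and +105 kb were weaker. At +66.7 kb, chr10:117944435-117945264, CTCF ranked 82.5 and 88.3, and Rad21 ranked 91.4, 58.9 and 33.3 in pre-B, DN and DP cells. At +105 kb, chr10:117982372-117983751, CTCF ranked 61.7 and 42.0 and Rad21 74.5, 35.6 and 63.2. The order of these sites in DP, with +105 kb above +66.7 kb, was thus the reverse of the order in pre-B and DN cells.

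Within Ifng itself, a site 1.06 kb from the start, chr10:117878797-117879523, was called in 4 of the 5 libraries. CTCF ranked 68.3 in IL7-cultured pro-B cells and 75.2 in pre-B cells. Rad21 ranked 81.8 in pre-B cells and 17.0 in DP, and it was not called in DN. Its motif lay in intron 1, and the pre-B CTCF peak also reached coding sequence. DN thymocytes had no Rad21 peak over 137 kb, chr10:117807853-117944516, a stretch that includes the whole gene, and their nearest peak lay 66414 bp from the Ifng start. The mean distance between neighbouring DN peaks over the genome was 263 kb, so a stretch of this length is ordinary for that list. With every list limited to 9701 peaks the site in Ifng was called for Rad21 in pre-B cells only.

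Upstream of Ifng at -29.5 kb, chr10:117848281-117849022, CTCF ranked 71.6 and 63.4 and pre-B Rad21 44.6, and neither thymocyte library had a peak. At -47.4 kb, chr10:117830489-117830962, a weak site was called for CTCF and Rad21 in pre-B cells, at ranks of 14.3 and 7.71, and for Rad21 in DP, at 28.9. One CTCF peak of IL7-cultured pro-B cells, at -139 kb and 7112 bp from Iltifb, ranked 1.13. No peak lay in Gm9049, the other protein-coding gene wholly inside the window.

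**Figure D4:**
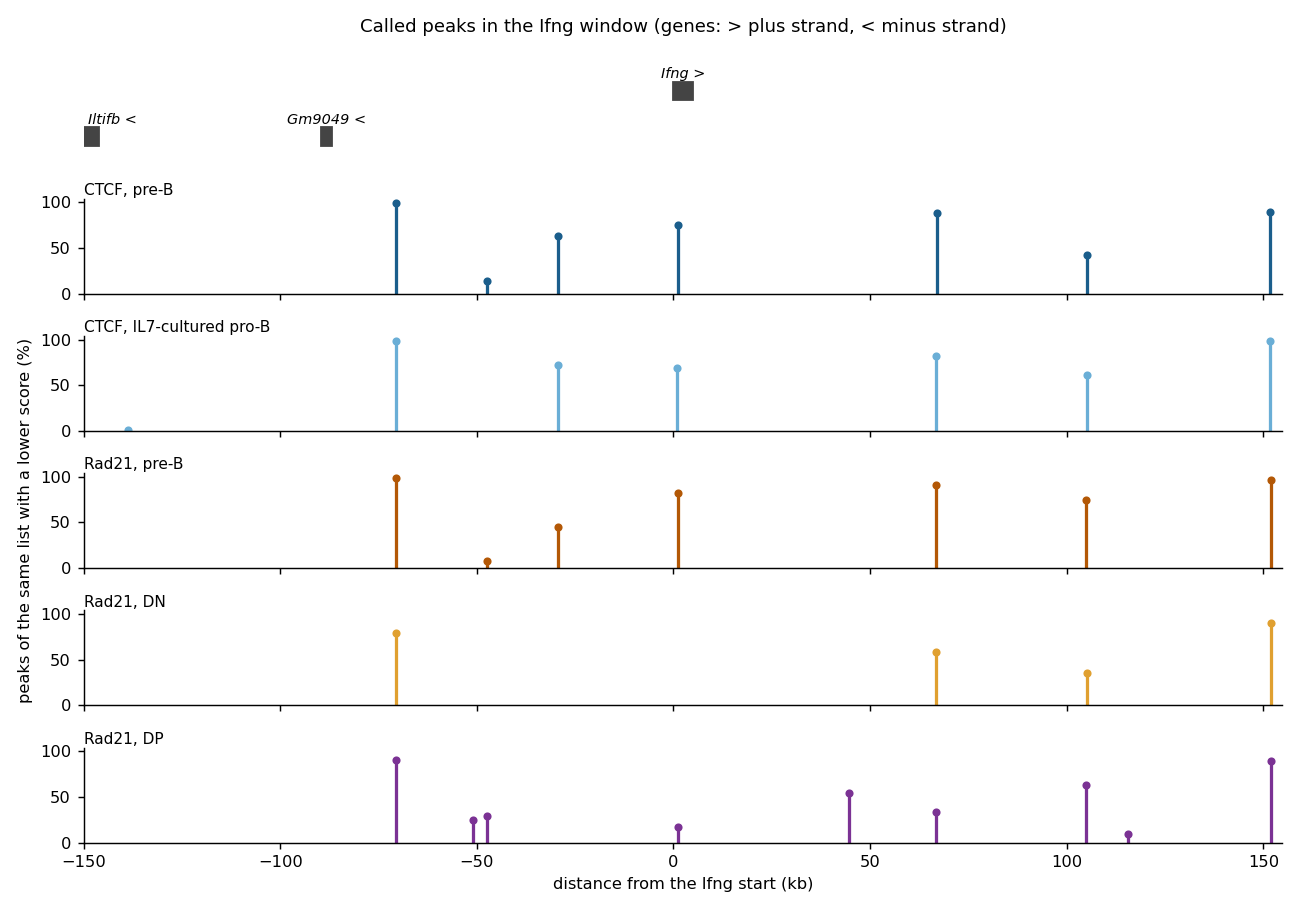
Called peaks of the 5 libraries in the Ifng window, by distance from the Ifng start in kb (x axis) and by rank in their own list in percent (y axis), with protein-coding genes drawn above. The sites at -70.4 and +152 kb stand high in all 5 libraries, and the site in Ifng is present in both CTCF lists, in pre-B Rad21 and, at a rank of 17.0, in DP Rad21, but not in DN.

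Between B-lineage libraries, the sharing of CTCF peaks in the windows could not be told from that of the whole lists at these counts. All 18 pre-B CTCF peaks of the Th2 window overlapped a CTCF peak of IL7-cultured pro-B cells (interval 81.5 to 100%), as did 6 of 7 in the Ifng window (interval 42.1 to 99.6%), against 96.0% of the list. In the other direction 20 of 28 peaks of IL7-cultured pro-B cells in the Th2 window, 71.4% with an interval of 51.3 to 86.8%, and 6 of 7 in the Ifng window, with the same interval as before, overlapped a pre-B CTCF peak, against 58.6% of the longer list.

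Between pre-B cells and thymocytes, the sharing of Rad21 sites in the windows could not be told from that over the genome at these counts. Merging the 3 Rad21 lists gave 15 sites in the Th2 window and 10 in the Ifng window. Of these, 7 of 15 (46.7%, interval 21.3 to 73.4%) and 6 of 10 (interval 26.2 to 87.8%) were shared by pre-B Rad21 and 1 or more thymocyte lists, against 44.6% over the genome. Sites called in all 3 Rad21 libraries were 2 of 15 (13.3%, interval 1.66 to 40.5%) and 4 of 10 (interval 12.2 to 73.8%), against 18.7%. Pre-B cells alone had 5 of 15 and 1 of 10, against 20.6%, and DP alone had 3 of 15 and 3 of 10, against 33.6%. No site in either window was called in DN alone, against 0.310%. Every interval given here included the genome's share.

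Counted by peaks, 7 of 12 pre-B Rad21 peaks in the Th2 window and 6 of 7 in the Ifng window overlapped a DP Rad21 peak, against 67.3% of the list. All 3 DN peaks of the Th2 window and all 4 of the Ifng window overlapped a B-lineage CTCF peak, against 98.4% of the DN list. For DP it was 9 of 11 (81.8%, interval 48.2 to 97.7%) and 6 of 9 (66.7%, interval 29.9 to 92.5%), against 69.2%. Over CTCF and Rad21 together, 2 of 28 sites in the Th2 window (7.14%, interval 0.877 to 23.5%) and 4 of 11 in the Ifng window (36.4%, interval 10.9 to 69.2%) were called in all 5 libraries, against 10.3% of all sites. The Ifng interval lay just above this share, and the Th2 interval included it.

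The CTCF consensus was searched in the peaks of both windows. With at most 2 mismatches on either strand, 6 of 7 CTCF peaks of the Ifng window held the consensus in each B-lineage library, with an interval of 42.1 to 99.6%, and 0 of 7 neighbouring sequences of the same length 2000 bp away. In the Th2 window it was 8 of 18 peaks in pre-B cells and 10 of 28 in IL7-cultured pro-B cells (intervals 21.5 to 69.2% and 18.6 to 55.9%), with 3 of 18 and 4 of 28 neighbouring sequences. Over the whole lists 48.3% of pre-B peaks and 39.0% of IL7-cultured pro-B peaks held it, against 8.97% and 5.97% of neighbouring sequences. The paper searched a larger library of CTCF motifs that includes this consensus, and matched a larger share of the pre-B peaks. A peak without a match here can therefore still hold a CTCF motif. Of the 4 intervals, that of the Ifng window in IL7-cultured pro-B cells lay just above its list's share and the others included it. With at most 1 mismatch, 2 of 7 Ifng peaks (28.6%) matched in each library and 3 of 18 (16.7%) and 3 of 28 (10.7%) at Th2, against 16.1% and 11.7% of the pre-B and IL7-cultured pro-B lists. A 20-base matrix was built from 5942 sequences of pre-B CTCF peaks outside chromosomes 10 and 11 that matched this consensus with at most 1 mismatch. It was passed by 5% of neighbouring sequences. With the matrix, 5 of 7 Ifng peaks (71.4%) matched in each library and 8 of 18 (44.4%) and 10 of 28 (35.7%) at Th2, against 61.9% of the pre-B list and 51.1% of the IL7-cultured pro-B list.

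Of 9 Th2 sites and 6 Ifng sites with a consensus match, 5 in each window also passed the matrix at the same place, and these include every site shown above but that at Ifng +66.7 kb. Because the matrix was built from matches to the same consensus, passing both is not independent support for a motif. Loops in mammalian genomes often join CTCF motifs that point towards each other, which is why the strand is given, although no contact was measured here. Both Kif3a sites with CTCF and Rad21 had minus-strand matches, which point towards Il4, whereas the site between Il4 and Il13 and the farther site beyond Il5 had plus-strand matches, which point back towards Kif3a. The site between Il5 and Irf1 had a minus-strand match with 2 mismatches. At Ifng the matches at -70.4 and -29.5 kb were on the plus strand and pointed away from the gene, the match in intron 1 and those at +66.7 and +152 kb were on the minus strand, and the one at +105 kb was on the plus strand.

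The promoters of the cytokine genes were compared with the peak lists. In the 300-base promoter sequences of RefSeq (build GRCm38), placed on mm9 by exact sequence match, neither of the 2 Il4 promoters nor those of Il13, Il5 and Ifng overlapped a peak of any library, and both Irf1 promoters overlapped the Rad21 peaks of pre-B and DP cells. Among 22208 protein-coding genes, 35.7% had a peak of at least 1 of the 5 libraries in the 300 bases placed in the same way about the annotated gene start, so most genes were like the cytokine genes in this. No consensus match with at most 2 mismatches was found in these 7 promoters, and 7.56% of 27025 promoters, 1 per gene symbol, held one. The promoters also differed in CpG content, with 1 and 2 CpGs for Il4, 3 for Il13, 4 for Il5 and 7 for Ifng against 32 and 43 for Irf1, where the median over all promoters was 7. The nearest Rad21 peak to the Il5 start lay 14550 bp away in pre-B cells, 13155 bp in DP, where it was the one at the Rad50 start, and 37295 bp in DN.

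Genes of the wider Th1 and Th2 programmes were counted beside all protein-coding genes. Counting a gene with a peak inside it or within 10 kb, the 5 genes named at the outset all had a CTCF peak in both B-lineage libraries, and 3, 2 and 4 of 5 had a Rad21 peak in pre-B, DN and DP cells. Rad50 and Il5 were without Rad21 in pre-B cells, Rad50, Il5 and Ifng in DN, and Il5 in DP. Of 22208 protein-coding genes, 78.4% had a CTCF peak in IL7-cultured pro-B cells and 69.1% in pre-B cells, and 60.2%, 30.2% and 62.4% a Rad21 peak in pre-B, DN and DP cells.

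Of 24 listed genes of the Th2 programme 23 were found in the annotation, among them the master regulator Gata3, and of these 20 and 19 had a CTCF peak (87.0% and 82.6%) and 19, 11 and 18 a Rad21 peak (82.6%, 47.8% and 78.3%) in the same order. For 22 genes of the Th1 programme, among them Eomes, which encodes a T-box factor, the counts were 18 and 17 for CTCF (81.8% and 77.3%) and 17, 13 and 17 for Rad21 (77.3%, 59.1% and 77.3%). A list of 12 other cytokine genes, which shares several genes with the first lists, gave 8 and 7 for CTCF (66.7% and 58.3%) and 7, 5 and 7 for Rad21 (58.3%, 41.7% and 58.3%). No difference between these lists and all genes was tested. Gata3, the chemokine receptor genes Ccr4 and Ccr8, the cytokine gene Csf2, Eomes and the homeobox gene Hlx had a Rad21 peak in all 3 Rad21 libraries. The cytokine genes Il2, Il10, Il17a and Il17f, the chemokine receptor gene Cxcr3 and the granzyme gene Gzmb had no peak of either protein in any library.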

How the data were processed

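Libraries of 5 ChIP samples and 4 inputs were grouped by their titles. As the methods state, the authors dropped adapters and duplicates, mapped the reads to mm9 with Bowtie, allowed a read up to 3 locations, and ran MACS 1.4.2 to obtain confident peaks. The submitters' processing notes give Bowtie version 0.12.9, and the paper's methods name another version. Each cell type had its own input, and the methods do not say which input each list was called against. The authors deposited each peak's position and score, which MACS derives from the p-value against input and which grows with depth, so scores were ranked only within a list. Keeping reads that map to several places can place signal in repeated sequence. Columns of other samples numbered 0.

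Peaks were joined to GENCODE vM1 genes on mm9 (Python 3.11.15, numpy 2.4.6, scipy 1.17.1, matplotlib 3.10.9). Peaks of different libraries sharing at least 1 bp were merged into sites. Shares have exact 95% intervals. The overlap, merging and consensus search steps were tested on simulated data, and the ranking was not. The genes named were the members, the other protein-coding and long non-coding genes of the windows, and, in alphabetical order, at most 6 pathway genes with Rad21 in all 3 libraries and at most 6 without any peak. Members and lists were chosen with earlier results of these data known. The stretches of the Th2 window, the chromosome densities, the Rad21 share by CTCF rank and the genome values for stretches, gene starts and the 50 kb flank were added after the data had been seen.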

Additional observations from a re-analysis of the deposited data

How the results depend on the processing

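Counts depended on list length and on the window. With every list limited to 9701 peaks the Th2 window held 5 and 5 CTCF peaks (IL7-cultured pro-B, pre-B), 4 pre-B and 3 DP Rad21 peaks, and the Ifng window 2 and 3 CTCF peaks and 2 DP Rad21 peaks. Windows 50 kb wider gave 44 and 28 CTCF peaks and 20, 6 and 20 Rad21 peaks (pre-B, DN, DP) at Th2, and 11 CTCF peaks of IL7-cultured pro-B cells at Ifng. The genes with 20 kb gave 15 and 10 CTCF and 5, 1 and 4 Rad21 peaks at Th2, and 1 and 1 CTCF and 1, 0 and 1 Rad21 peaks at Ifng. Scores of at least 100 left 5 DP peaks at Ifng.

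The share of pre-B CTCF peaks with a CTCF peak in IL7-cultured pro-B cells was 80.0% at Th2 in lists of equal length, and at Ifng, where it was 85.7%, it was 66.7% (2 of 3 peaks) in lists of equal length and 100% with scores of at least 100. Allowing 1 mismatch left 3 peaks with the consensus at Th2 and 2 at Ifng in each CTCF library, while the whole lists fell to 16.1% (pre-B) and 11.7% (IL7-cultured pro-B). Ranked among chromosomes 10 and 11 only, the median ranks were 54.8, 39.7, 45.6, 50.4 and 64.4 at Th2 (CTCF of IL7-cultured pro-B and pre-B, Rad21 of pre-B, DN and DP) and 69.9, 72.5, 80.4 and 67.6 at Ifng without DP. Within 50 kb, DN Rad21 was found at 19 genes of the Th2 list, 20 of the Th1 list and 4 of the 5 cytokine and Rad50 genes, pre-B Rad21 at 5 of these 5, and CTCF and Rad21 of pre-B cells at 11 and 11 of the 12 other cytokine genes; of all protein-coding genes, 57.0% had DN Rad21, 80.0% pre-B Rad21 and 84.7% pre-B CTCF within 50 kb. Requiring 50% overlap (8 values) and counting by peak midpoint (10 values) left every value as it was. The matrix gave 5 in place of 6 matched peaks at Ifng in each CTCF library, and 8 and 10 again at Th2.

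With scores of at least 100, the 6 sites called in all 5 libraries remained so, the DP peak in Ifng and the pre-B Rad21 peak at the Irf1 start were lost, and 4 of 28 Th2 sites, that at the Rad50 start among them, and 4 of 11 Ifng sites, at -139, -50.9, -47.4 and +116 kb, had no call left. In lists of equal length 2 of these 6, at Ifng -70.4 and +152 kb, were still called in all 5, and 21 of 28 Th2 and 6 of 11 Ifng sites had no call left. No paired analysis was possible because each condition had 1 library.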
